A study of Mus musculus with 18 samples.

Results

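The HOX cluster genes were followed through 18 RNA-seq libraries of mouse tail tendon fibroblasts (TFs). Members were all rows of the gene count table whose symbol is Hox, a cluster letter from a to d and a number, which gave 39 of 55491 rows: 11 in HoxA, 10 in HoxB, 9 in HoxC and 9 in HoxD. TFs were cultured from tail tendons of mice of both sexes, aged 4 to 6 months, on a mixed C57BL6J and 129S1 background and kept for 4 days in 20% or 1% O2. Ctrl TFs came from Cre-negative mice, labelled wild-type. The study's methods give Cre-negative Ctrl mice as *Hif1a* flox/flox. cKO TFs, labelled Hif1a knockout, came from *Hif1a* flox/flox mice that carry *Scx*Cre, so that recombination depends on the tendon gene *Scx*. The remaining line of cultures was Ctrl TFs that had received Cre gesicles, vesicles that bring the recombinase into the cell. Each of the 6 groups held 3 libraries, and nothing in the labels says which libraries share a mouse.

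HOX genes encode homeodomain transcription factors that give cells a position along the body axis. Within a cluster, genes at the 3′ end (low paralog numbers) are active towards the head and genes at the 5′ end (high numbers) towards the tail, a property called collinearity. Fibroblasts of adult organs are known to keep, in culture, much of the HOX pattern of the site they came from. Paralog groups 1 to 3 are called anterior here, 4 to 8 central and 9 to 13 posterior. Levels of different genes are compared as CPM (counts scaled to library size with TMM factors) per kb of exon, and 1 gene is compared between libraries as CPM.

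Library totals ranged from 26967440 to 51806453 counts in 17 libraries, and cKO in 1% O2 replicate 1 had 6857558. The tendon genes *Scx*, *Mkx* and *Tnmd* were counted in all 18 libraries, with at least 52, 399 and 590 counts. Defining genes of muscle precursors (*Pax7*, *Myf5*), T cells (*Cd3e*) and keratinocytes (*Krt14*) had at most 2 counts in any library. Other listed genes of those and further cell types were counted, *Krt10* of keratinocytes at 57 to 298, *Des* of muscle at 16 to 257, *Tek* of endothelium at 118 to 3081 and *Cd68* of blood cells at 3 to 90, while *Krt5*, *Pecam1*, *Cdh5* and *Kdr* reached at most 7, 9, 26 and 25. *Hif1a* was not lower in the libraries labelled cKO, at 294 to 431 CPM in 20% O2 against 335 to 371 in Ctrl, and at 398 to 503 against 365 to 488 in 1% O2. These counts cover the whole gene and do not separate the floxed part. *Cre* transcripts were counted in 5 of the 6 libraries labelled cKO and in 0 of the other 12. By *Xist* and Y-linked counts, replicate 1 of Ctrl was male and replicates 2 and 3 female, with and without gesicles, whereas replicate 1 of cKO was female and replicates 2 and 3 male.

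Tail TFs carried a posterior HOX code made of the HoxA, HoxB and HoxC clusters. The mean level reached 1 CPM per kb in 14 of the 39 genes, of which 10 belonged to the 16 posterior genes, 3 to the 15 central genes and 1 to the 8 anterior genes. All 39 genes together took a small part of the RNA, between 0.0264% and 0.0326% of the counts of a library. Posterior genes held 88.7% ± 2.08 (SD, n = 18 libraries) of the summed HOX level, central genes 9.31% ± 1.83 and anterior genes 1.99% ± 0.421. Paralog group 13, the most 5′ group, alone held 46.4% ± 4.86.

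**Figure D1:**
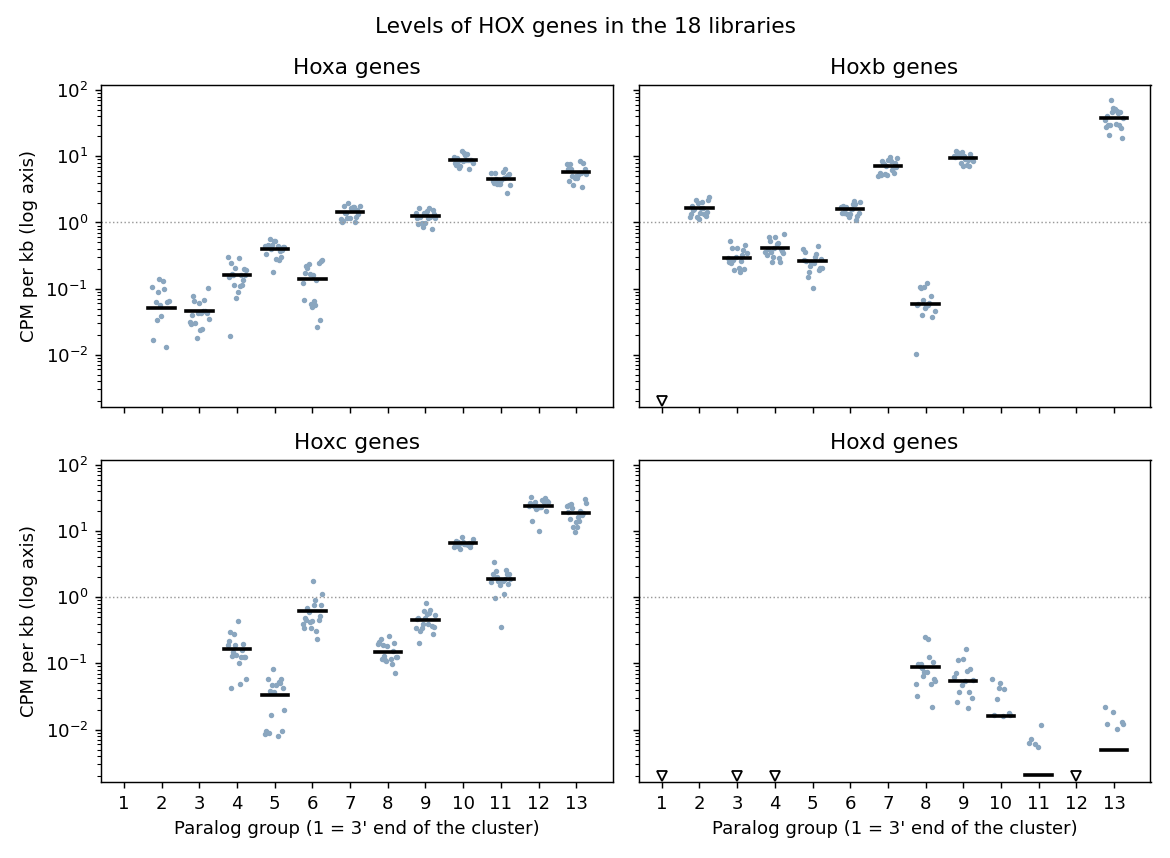
Levels of the HOX genes reported here by cluster (panels) and paralog group (x axis), as CPM per kb on a log axis. Grey-blue points are the 18 libraries (values of 0 cannot be drawn), black bars are means, open triangles mark genes with 0 counts in all 18 libraries, and the dotted line is 1 CPM per kb; levels climb with paralog number in HoxA, HoxB and HoxC, whereas the highest HoxD mean is 0.0872.

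*Hoxb13*, the terminal gene of HoxB and known for limiting the length of the tail, stood highest at 38.6 ± 13.4 CPM per kb (SD, n = 18). *Hoxc12* followed with 24.3 ± 5.65 and *Hoxc13*, a gene also known from hair and nail, with 18.9 ± 5.86. *Hoxb13* lay above *Hoxc12* in 16 of 18 libraries, and *Hoxc12* above *Hoxc13* in 14, so that the order of these 3 was not the same in every library. Next came *Hoxb9* (9.51 ± 1.52) and *Hoxa10* (8.83 ± 1.54), neighbours that changed places in 6 libraries.

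A middle tier was formed by *Hoxb7* at 7.09 ± 1.55 CPM per kb, *Hoxc10* at 6.5 ± 0.661, *Hoxa13* at 5.77 ± 1.49 and *Hoxa11* at 4.58 ± 0.932. *Hoxc10* was the steadiest of the expressed genes, with a coefficient of variation of 10.2% over all 18 libraries and a 1.07-fold span between its highest and lowest group mean. *Hoxc11* (1.86), *Hoxb2* (1.63), *Hoxb6* (1.57), *Hoxa7* (1.42) and *Hoxa9* (1.25) closed the list of genes over 1 CPM per kb. *Hoxb2* was the only anterior gene among the 14, and 27.3% of its exon length is shared with the antisense gene *Hoxb3os* (8 to 54 counts), from which it cannot be told apart unless reads were counted by strand.

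The rise from 3′ to 5′ was seen in 3 clusters. Across the genes of a cluster, Spearman's rho between paralog number and mean level was 0.79 in HoxA (11 genes), 0.59 in HoxB (10 genes), 0.85 in HoxC (9 genes) and 0.30 in HoxD (9 genes); the points come from the same libraries and serve as a description. The rise was not even. In HoxB, *Hoxb8* lay at 0.0582 CPM per kb between *Hoxb7* at 7.09 and *Hoxb9* at 9.51. In HoxC, *Hoxc9* reached 0.456 beside *Hoxc10* at 6.5. Towards the 3′ end of HoxA, *Hoxa2* and *Hoxa3*, genes of the hindbrain and neck, lay at 0.0507 and 0.0459.

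The HoxD cluster, whose 5′ genes pattern digits and genitalia, was nearly silent. It held 0.121% ± 0.0867 of the summed HOX level, and none of its 9 genes exceeded 3 counts in all 18 libraries. *Hoxd1*, *Hoxd3*, *Hoxd4* and *Hoxd12* had 0 counts in all 18, as did *Hoxb1*. A count of 0 allows up to 0.0579 to 0.111 CPM in 17 libraries and 0.437 CPM in the smallest (3 counts, counting error only). *Hoxd13* had 8 counts over all libraries against 54167 for its paralog *Hoxb13*, a 7621-fold difference per exon length, and 3790-fold and 1157-fold against *Hoxc13* and *Hoxa13*.

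*Hoxd8* and *Hoxd9* were the only HoxD genes counted in most libraries, with 0 to 30 and 0 to 14 counts. *Hoxd8* had 30 and 26 counts in replicate 3 of the libraries labelled cKO, in 20% and 1% O2, and at most 15 in the other 16 libraries. *Hoxd9* was also highest in that replicate, with 11 and 14 counts.

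The promoters of an expressed and a nearly silent group-13 paralog are shown with those of the group-11 pair, where HoxA was likewise on and HoxD off. Each run is RefSeq sequence (GRCm38.p6) from 250 bases before to 50 after an annotated start, written 5′ to 3′ on the strand of the gene. Capitals mark ACGTG or GCGTG on either strand, the core letters of the hypoxia response element to which HIF proteins bind, and an overlapping pair makes CACGTG.
*Hoxa13* (chr6:52260831-52261130, minus strand): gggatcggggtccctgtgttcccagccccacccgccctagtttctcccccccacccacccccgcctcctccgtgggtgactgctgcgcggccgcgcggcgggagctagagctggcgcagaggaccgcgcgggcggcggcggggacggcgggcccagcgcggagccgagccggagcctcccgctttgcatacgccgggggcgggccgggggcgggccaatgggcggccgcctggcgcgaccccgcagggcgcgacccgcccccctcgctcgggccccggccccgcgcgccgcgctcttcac
*Hoxd13* (chr2:74667975-74668274, plus strand): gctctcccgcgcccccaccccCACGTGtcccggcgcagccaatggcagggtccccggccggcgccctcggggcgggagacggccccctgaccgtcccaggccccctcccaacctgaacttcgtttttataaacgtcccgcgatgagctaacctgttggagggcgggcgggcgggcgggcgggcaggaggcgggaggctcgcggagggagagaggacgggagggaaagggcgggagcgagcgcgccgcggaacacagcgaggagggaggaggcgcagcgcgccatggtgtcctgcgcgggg
*Hoxa11* (chr6:52245761-52246060, minus strand): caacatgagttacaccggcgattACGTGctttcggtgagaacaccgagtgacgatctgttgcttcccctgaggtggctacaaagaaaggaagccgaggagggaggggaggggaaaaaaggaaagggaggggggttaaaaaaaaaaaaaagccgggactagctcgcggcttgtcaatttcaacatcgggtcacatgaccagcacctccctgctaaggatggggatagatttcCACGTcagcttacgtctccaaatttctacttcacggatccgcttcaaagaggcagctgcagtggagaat
*Hoxd11* (chr2:74679308-74679607, plus strand): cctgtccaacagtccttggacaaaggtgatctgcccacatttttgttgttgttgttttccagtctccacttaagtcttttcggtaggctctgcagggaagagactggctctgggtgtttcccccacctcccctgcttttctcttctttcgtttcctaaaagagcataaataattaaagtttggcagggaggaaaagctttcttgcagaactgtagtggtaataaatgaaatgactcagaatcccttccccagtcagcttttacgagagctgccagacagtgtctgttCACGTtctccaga
*Hoxd11* (chr2:74682073-74682372, plus strand): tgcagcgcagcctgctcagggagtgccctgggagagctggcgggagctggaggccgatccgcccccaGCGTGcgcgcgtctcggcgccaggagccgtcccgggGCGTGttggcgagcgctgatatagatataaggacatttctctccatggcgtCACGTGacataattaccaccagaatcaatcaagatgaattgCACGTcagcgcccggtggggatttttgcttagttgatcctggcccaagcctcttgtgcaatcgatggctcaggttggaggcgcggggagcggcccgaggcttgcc
The table held promoters of 22 of the 39 genes, 24 starts in all. The expressed *Hoxa13* and the silent *Hoxd13* both had GC-rich promoters, with 81% and 74.3% G and C and an observed-to-expected CpG ratio of 0.918 and 0.904. The median over 24 HOX promoters was 0.626, against 0.384 over 32851 promoters of all genes. ACGTG stood in 7 of 24 HOX promoters (29.2%) and in 19.6% of all promoters, and GCGTG in 9 of 24 (37.5%) and in 32.4%. Neither motif stood in the *Hoxa13* window, while the *Hoxd13* window held ACGTG in the 2 readings of a single CACGTG.

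HOX genes called between the groups are given beside the share of all genes called. Differences were tested over all genes with edgeR (quasi-likelihood). A call needed an adjusted p below 0.05 by the Benjamini-Hochberg method together with a change of 1.5-fold or more. No HOX gene was called between 1% and 20% O2 in Ctrl, cKO or gesicle-treated TFs (0 of 25, 0 of 25 and 0 of 26 tested), where 1.88%, 2.1% and 2.41% of all genes were. At an unadjusted p under 0.05 there were 1, 2 and 3 HOX genes, beside 16.1%, 19.8% and 17.3% of all genes. In each O2 level, 0 of 25 HOX genes were called between cKO and Ctrl TFs, with 0.347% of all genes called in 20% O2 and 0.0379% in 1% O2. Unadjusted p was under 0.05 for 3 and 4 HOX genes there, and for 14.3% and 16.8% of all genes. Between gesicle-treated and Ctrl TFs 0 of 26 HOX genes were called in either O2 level, with 0.0247% of genes called in 20% O2 and 0% in 1% O2. At an unadjusted p under 0.05 these comparisons gave 1 and 0 HOX genes, beside 3.67% and 2% of all genes.

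Averaged over both O2 levels, cKO and Ctrl TFs differed in 2 of 25 HOX genes, against 3.78% of all genes. The interaction of genotype and O2 was called for 0 of 25 HOX genes and 0% of all genes, with 0 HOX genes and 367 genes in all at an unadjusted p under 0.05. DESeq2 called 2 HOX genes between O2 levels in cKO, 1 in gesicle-treated TFs and 1 between genotypes in 20% O2. Of all genes with any count it called 888 of 28539, 731 of 29738 and 434 of 28539 there. An F test for any difference among the 6 groups called 4 of 26 HOX genes, *Hoxc13*, *Hoxb7*, *Hoxc6* and *Hoxb13*. That share of 15.4% stood beside 14.7% of all genes. The median log2 fold change of the HOX genes tested lay between -0.22 and 0.16 in 9 contrasts, and that of all genes between -0.042 and 0.034.

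The most 5′ genes of HoxB and HoxC differed between genotypes in opposite directions. *Hoxb13* (chr11:96194316-96197447, plus strand) was measured at 79, 61.3 and 90.8 CPM in Ctrl and at 157, 102 and 121 in cKO in 20% O2 (replicates 1, 2 and 3). In 1% O2 it was measured at 65.7, 45.8 and 66.1 CPM in Ctrl and at 115, 67.3 and 108 in cKO. The libraries labelled cKO were higher in both O2 levels, with no overlap in either.

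*Hoxc13* (chr15:102921103-102928814, plus strand) was measured at 58.6, 48.1 and 60.8 CPM in Ctrl and at 28.6, 24.2 and 33.8 in cKO in 20% O2. In 1% O2 the values were 37.3, 62.3 and 55.4 in Ctrl and 28, 39.6 and 35.5 in cKO. The groups did not overlap in 20% O2 and overlapped in 1% O2, where Ctrl replicate 1 lay below cKO replicate 2.

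Over both O2 levels, *Hoxb13* was higher in the libraries labelled cKO, at 0.71 on the log2 scale (SE 0.17, edgeR adjusted p = 0.0362), and *Hoxc13* lower, at -0.77 (SE 0.14, edgeR adjusted p = 0.0162). Within 20% O2 the same genes gave 0.71 (adjusted p = 0.231) and -0.96 (adjusted p = 0.075), and within 1% O2 0.70 (adjusted p = 0.222) and -0.58 (adjusted p = 0.229). The averaged test counts both O2 cultures of a replicate number as separate samples. With those 2 libraries summed, 0 HOX genes were called (*Hoxc13* -0.78, edgeR adjusted p = 0.0826, and *Hoxb13* 0.77, edgeR adjusted p = 0.226), and without Ctrl in 20% O2 replicate 1 neither was. *Hoxb13* was called in 4 of 12 fits that left out 1 library and *Hoxc13* in 11 of 12.

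Sex was not balanced between the genotypes. With sex, read from the counts, as a term of the fit, *Hoxb13* gave 0.74 (edgeR adjusted p = 0.048) and *Hoxc13* -0.76 (edgeR adjusted p = 0.037). Summed CPM of the 3 pericyte markers was also lower in the libraries labelled cKO, at 18.2 to 26.4 against 24.6 to 88.3 in Ctrl, with *Rgs5*, *Kcnj8* and *Cspg4* counted in 18, 17 and 18 libraries over 3 counts. In 20% O2 the groups did not overlap for this sum (19.1 to 26 against 50.6 to 88.3). There the summed CPM of the 10 tendon fibroblast markers was also lower without overlap, at 5321 to 10383 against 11135 to 13299. That of the 3 keratinocyte markers, mostly *Krt10*, was higher without overlap, at 4.46 to 7.58 against 3.44 to 3.96. The 5 cartilage and bone markers summed to 3.48 to 5.23 against 5.23 to 10.5 CPM. In 1% O2 the sums of all 4 lists overlapped between genotypes. The part of these lists in the HOX values was not tested. In bulk RNA, fewer cells of a type and less RNA per cell cannot be told apart.

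**Figure D2:**
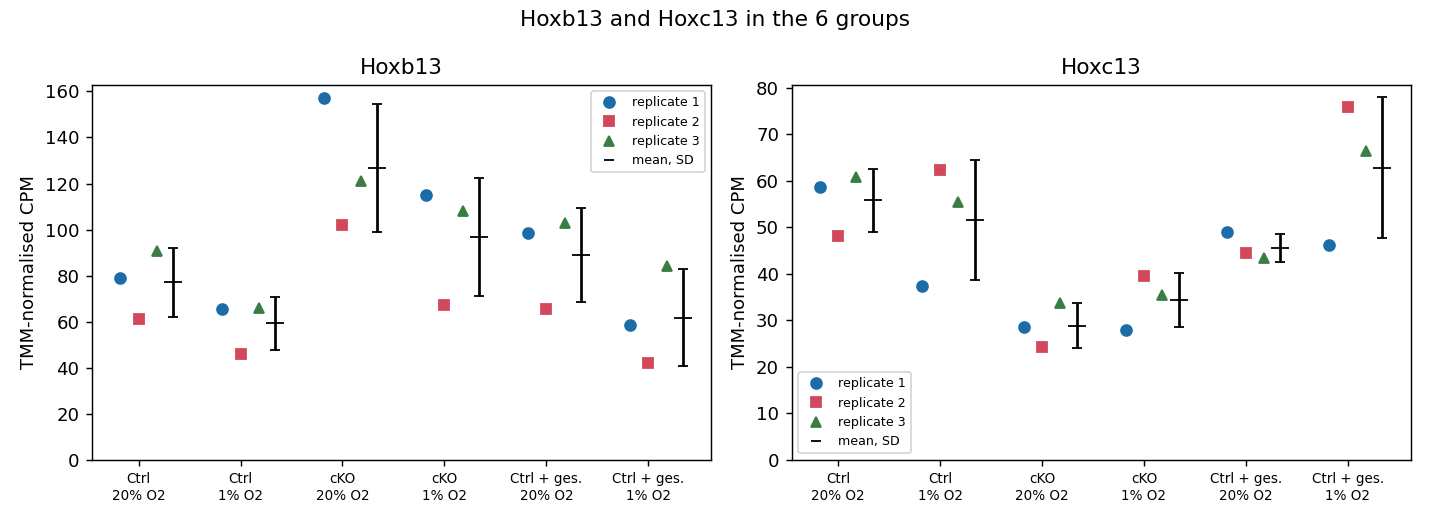
TMM-normalised CPM of *Hoxb13* (left) and *Hoxc13* (right) in the 6 groups (ges., gesicles). Symbols are single libraries by replicate number and black marks the mean with SD (n = 3); *Hoxb13* is highest in the 2 cKO groups (127 and 96.6 CPM on average) and *Hoxc13* lowest there (28.9 and 34.4 CPM).

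The balance within paralog group 13 moved with these 2 genes. *Hoxb13* made up 54.6% ± 3.65 (SD, n = 3) of the summed level of group 13 in Ctrl and 77.6% ± 4.18 in cKO TFs in 20% O2, and 49.4% ± 8.89 and 68.7% ± 8.89 in 1% O2. The per-length ratio of *Hoxb13* to *Hoxc13* ran from 1.42 to 1.67 in Ctrl and from 3.98 to 6.15 in cKO in 20% O2. In 1% O2 it ran from 0.819 to 1.97 and from 1.9 to 4.58, so that the groups overlapped. This ratio was formed because both genes were called, and it is given without a test.

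Other HOX genes did not pass the threshold between genotypes. *Hoxc9* gave 0.61 (SE 0.26, edgeR adjusted p = 0.144) and *Hoxa13* -0.36 (SE 0.16, adjusted p = 0.167) over both O2 levels. *Hoxc12*, next to *Hoxc13* on the chromosome, gave -0.26 (SE 0.20, adjusted p = 0.394).

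Gesicle-treated TFs share their Ctrl libraries with the comparison above. In them *Hoxb13* was measured at 98.5, 65.4 and 103 CPM in 20% O2 and at 58.7, 42.2 and 84.2 in 1% O2. These values overlapped those of Ctrl and also those of cKO in both O2 levels. The log2 fold change against Ctrl was 0.21 (SE 0.27) and 0.06 (SE 0.27), with edgeR adjusted p = 1 for each. *Hoxc13* gave -0.29 (SE 0.21) in 20% O2 and 0.28 (SE 0.21) in 1% O2, also at an edgeR adjusted p = 1. Whether gesicles and germline *Scx*Cre differ in their effect on these genes was not tested.

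In 1% O2 the posterior share was lower in all 3 lines of culture. It was 90.2% to 90.8% in 20% O2 and 85.7% to 87.4% in 1% O2 in Ctrl, 89.2% to 91.8% and 85.6% to 87.6% in cKO, and 89.2% to 91.1% and 86.5% to 88.2% in gesicle-treated TFs. The 3 libraries in 1% O2 lay below the 3 in 20% O2 in each line. The central share was higher, 10.9% ± 0.995 against 7.57% ± 0.53 in Ctrl (SD, n = 3), 11.6% ± 0.992 against 7.67% ± 1.02 in cKO and 10.1% ± 0.97 against 8.03% ± 0.826 with gesicles. Without *Hoxb13* the posterior share was 87.4% to 87.5% in 20% O2 and 81% to 84.5% in 1% O2 in Ctrl, and 83.7% to 85.5% and 77.1% to 81.1% in cKO. With gesicles it then ran from 85.9% to 86.6% and from 81.8% to 86.3%, which overlapped. Most of the central level was *Hoxb7*, whose mean went from 5.37 to 7.99 CPM per kb between O2 levels in Ctrl, from 5.9 to 9.1 in cKO and from 6.11 to 8.09 with gesicles. Other central genes went the other way in Ctrl, with means of 0.347 and 0.195 CPM per kb for *Hoxb5*, 0.234 and 0.107 for *Hoxc4* and 0.214 and 0.145 for *Hoxc8*. Without *Hoxb7*, a choice made after its values were seen, the posterior share ran from 94.1% to 94.5% in 20% O2 and from 92.2% to 92.9% in 1% O2 in Ctrl. It then ran from 94% to 95.4% and from 92.5% to 93.2% in cKO, and from 94% to 94.9% and from 92.3% to 93.4% with gesicles. A share is a sum over the members and was given no test.

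Markers of other cell types differed between O2 levels as well. Summed CPM of the 4 endothelial markers, mostly *Tek*, was lower in 1% O2 without overlap in Ctrl (11.5 to 27.6 against 27.9 to 45.5) and with gesicles (17.4 to 25.2 against 25.8 to 61.3), and overlapped in cKO (16.8 to 40 against 37.2 to 76.6). The keratinocyte sum, mostly *Krt10*, was higher in 1% O2 in Ctrl, at 3.97 to 5.62 against 3.44 to 3.96. The sum of the 4 blood markers, mostly *Cd68*, was lower in 1% O2 in cKO, at 0.426 to 0.921 against 1.08 to 1.73. The part of these marker sums in the shares was not tested.

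**Figure D3:**
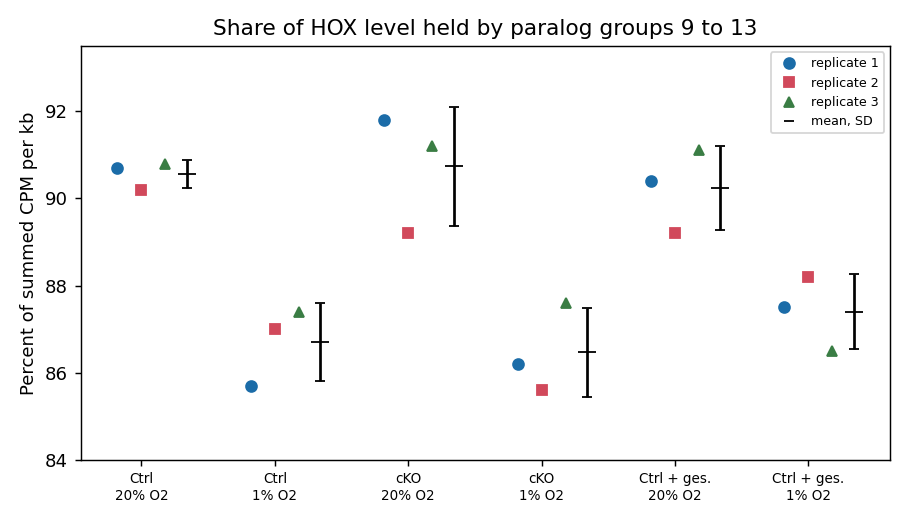
Share of the summed HOX level (CPM per kb over 39 genes, in percent) held by paralog groups 9 to 13 in each library, by group (ges., gesicles). Symbols are single libraries by replicate number and black marks the mean with SD (n = 3); the y axis starts at 84%, and each 1% O2 group lies wholly below the 20% O2 group of its line.

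*Hoxb7* and *Hoxc6*, central genes that specify trunk levels, had the lowest p-values between O2 levels, *Hoxb7* in Ctrl and *Hoxc6* in cKO and gesicle-treated TFs. *Hoxb7* (chr11:96286623-96290162, plus strand) was measured at 7.91, 8.77 and 8.18 CPM in 20% O2 and at 13, 12.4 and 11.7 in 1% O2 in Ctrl TFs. In cKO TFs it was measured at 8.49, 10.8 and 7.98 CPM and at 13.8, 15.3 and 13, and in gesicle-treated TFs at 9.57, 10.1 and 8.6 and at 12, 10.8 and 14.7. The 3 libraries in 1% O2 lay above the 3 in 20% O2 in each line. On the log2 scale the change was 0.58 (SE 0.16, edgeR adjusted p = 0.0916) in Ctrl, 0.63 (SE 0.16, adjusted p = 0.0629) in cKO and 0.40 (SE 0.15, adjusted p = 0.165) with gesicles. None passed the threshold. In Ctrl the adjusted p was 0.0144 with DESeq2, 0.0117 with DESeq2 and the replicate block, and 0.0494 with edgeR on all 18 libraries, with log2 changes of 0.56, 0.56 and 0.57 that lie under the 1.5-fold minimum. The F test over 6 groups passed (edgeR adjusted p = 0.0108).

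*Hoxc6* (chr15:102998257-103011881, plus strand) was a low gene, with 25 to 89 counts a library. It was measured at 0.938, 0.827 and 1.19 CPM in 20% O2 and at 1.08, 1.67 and 1.45 in 1% O2 in Ctrl TFs, which overlapped. In cKO TFs it was measured at 1, 0.814 and 1.06 CPM and at 4.26, 1.81 and 2.18. The 4.26 CPM came from 30 counts of the smallest library. In gesicle-treated TFs it was measured at 0.741, 0.566 and 1.08 CPM and at 1.28, 1.81 and 2.68, without overlap. The log2 fold changes were 0.51 (SE 0.35, edgeR adjusted p = 0.53) in Ctrl, 1.46 (SE 0.36, adjusted p = 0.0579) in cKO and 1.26 (SE 0.36, adjusted p = 0.0731) with gesicles. The interaction for *Hoxc6* was 0.95 (SE 0.51, edgeR adjusted p = 1).

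DESeq2, and a fit of all 18 libraries together, called *Hoxb7* and *Hoxc6* in cKO TFs. *Hoxc6* was also called in gesicle-treated TFs with DESeq2 and with a block for replicate number nested in the line. *Hoxb13* gave -0.37 (SE 0.23, edgeR adjusted p = 0.478), -0.39 (SE 0.23, adjusted p = 0.379) and -0.53 (SE 0.27, adjusted p = 0.328) for 1% against 20% O2 in the 3 lines. With the nested block, *Hoxb13* reached -0.55 at an edgeR adjusted p = 0.0178 with gesicles, under the 1.5-fold minimum.

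**Figure D4:**
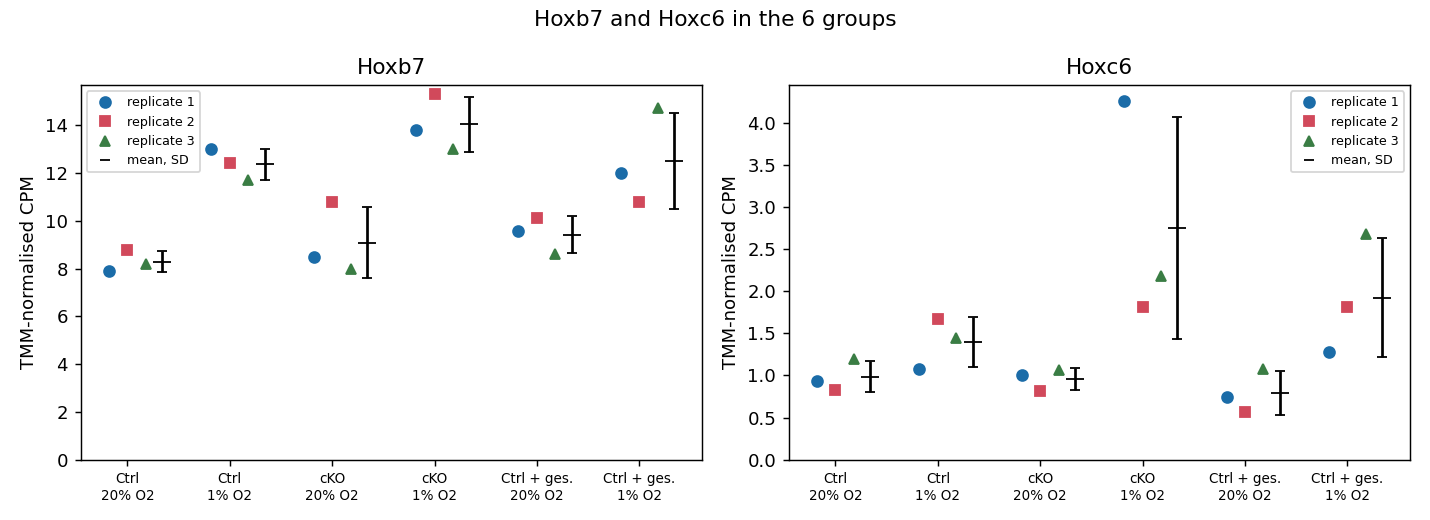
TMM-normalised CPM of *Hoxb7* (left) and *Hoxc6* (right) in the 6 groups (ges., gesicles). Symbols are single libraries by replicate number and black marks the mean with SD (n = 3); *Hoxb7* averages 12.3, 14 and 12.5 CPM in the 1% O2 groups against 8.28, 9.1 and 9.43 in 20% O2, and the highest *Hoxc6* value, 4.26 CPM, is the smallest library.

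The remaining genes over 1 CPM per kb are given by library, replicates 1, 2 and 3 in turn. *Hoxc12* was measured at 24.8, 27.2 and 33.7 CPM in Ctrl, 22, 22.9 and 23.9 in cKO and 30.3, 28.7 and 32.8 in gesicle-treated TFs in 20% O2, and at 14.9, 24.7 and 28.4, 10.5, 23.7 and 23.8 and 20.8, 29.7 and 28.4 in 1% O2. All libraries lay at 20.8 CPM or more except replicate 1 of Ctrl and of cKO in 1% O2, and the lower of these, 10.5 CPM, is 74 counts of the smallest library. In 20% O2 the libraries labelled cKO lay below those of Ctrl without overlap, by -0.32 on the log2 scale (SE 0.28, edgeR adjusted p = 0.589). For *Hoxc11* the CPM values were 3.48, 4.49 and 6.78 in Ctrl, 3.55, 3.61 and 3.13 in cKO and 3.78, 5.18 and 4.58 with gesicles in 20% O2, and 1.99, 4.97 and 4.17, 0.711, 3.51 and 2.28 and 3.19, 4.59 and 3.85 in 1% O2. Its lowest value, 0.711 CPM, rests on 5 counts of that library. *Hoxc10* was measured at 10.8, 12.4 and 13.4 CPM in Ctrl, 10.4, 15.4 and 13.2 in cKO and 12.3, 12 and 12.7 in gesicle-treated TFs in 20% O2, and at 11.3, 13.2 and 12, 12.1, 12.2 and 12.1 and 10.9, 12.4 and 14.6 in 1% O2. The groups overlapped between O2 levels and between genotypes.

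For *Hoxb9* the CPM values were 25.9, 25 and 31 in Ctrl, 20.2, 29.8 and 18.4 in cKO and 19, 22.5 and 18.6 with gesicles in 20% O2, and 29.6, 26.4 and 27.2, 26.2, 23.5 and 23.1 and 28, 24.2 and 21.9 in 1% O2. With gesicles in 20% O2 all 3 libraries lay below the 3 of Ctrl, by -0.45 on the log2 scale (SE 0.17, edgeR adjusted p = 1). In 1% O2 the libraries labelled cKO lay below those of Ctrl, by -0.20 (SE 0.18, edgeR adjusted p = 0.55). *Hoxb6* was measured at 3.35, 2.77 and 3.5 CPM in Ctrl, 2.62, 2.42 and 2.61 in cKO and 4.12, 3.78 and 2.15 in gesicle-treated TFs in 20% O2, and at 2.73, 3.13 and 3.39, 3.13, 3.11 and 3.7 and 2.47, 2.68 and 4 in 1% O2. In 20% O2 the libraries labelled cKO lay below those of Ctrl without overlap (-0.34, SE 0.20, edgeR adjusted p = 0.434). Within cKO those in 1% O2 lay above those in 20% O2 (0.39, SE 0.21, edgeR adjusted p = 0.313). For *Hoxb2* the CPM values were 4.26, 4.69 and 6.17 in Ctrl, 4.23, 6.77 and 3.9 in cKO and 5.79, 4.73 and 4.36 with gesicles in 20% O2, and 5.33, 5.57 and 7.67, 4.83, 5.87 and 7.13 and 5.08, 7.7 and 8.39 in 1% O2. Here groups overlapped between O2 levels in every line and between genotypes.

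*Hoxa13* was measured at 18.8, 15.7 and 10.5 CPM in Ctrl, 9.14, 11.5 and 12.6 in cKO and 21.4, 13.8 and 8.52 in gesicle-treated TFs in 20% O2, and at 18.8, 15.8 and 12.4, 11.8, 12.8 and 14 and 19.9, 16.1 and 13.2 in 1% O2. *Hoxa13* groups overlapped in both comparisons. For *Hoxa11* the CPM values were 12.8, 9.59 and 8.91 in Ctrl, 8.96, 8.81 and 8.63 in cKO and 14.7, 11.2 and 6.47 with gesicles in 20% O2, and 12.7, 10.4 and 8.63, 10.1, 13.3 and 10.8 and 11.9, 12.3 and 8.42 in 1% O2. Within cKO the 1% O2 libraries lay above those in 20% O2, by 0.39 on the log2 scale (SE 0.20, edgeR adjusted p = 0.295). *Hoxa10* was measured at 31.5, 25.8 and 24.4 CPM in Ctrl, 23.4, 39.1 and 27.5 in cKO and 35.4, 28.8 and 20.7 in gesicle-treated TFs in 20% O2, and at 31.2, 28 and 21.8, 36.2, 34.1 and 29.1 and 28.4, 28.4 and 26 in 1% O2. Its groups overlapped between O2 levels and between genotypes.

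*Hoxa9* and *Hoxa7* closed the HoxA list. For *Hoxa9* the CPM values were 7.67, 6.61 and 5.38 in Ctrl, 4.77, 7.79 and 5.53 in cKO and 9.24, 6.81 and 4.4 with gesicles in 20% O2, and 9.33, 6.7 and 5.49, 7.68, 8.43 and 6.6 and 8.71, 7.5 and 6.59 in 1% O2. Groups overlapped for *Hoxa9* throughout. *Hoxa7* was measured at 3.24, 2.92 and 2.98 CPM in Ctrl, 3.33, 5.65 and 3.31 in cKO and 4.89, 2.96 and 3.51 in gesicle-treated TFs in 20% O2, and at 5.11, 3.93 and 3.99, 4.69, 4.58 and 5 and 4.53, 3.91 and 5.05 in 1% O2. For *Hoxa7* the Ctrl libraries in 1% O2 lay above those in 20% O2, by 0.52 on the log2 scale (SE 0.24, edgeR adjusted p = 0.319). In 20% O2 the libraries labelled cKO lay above those of Ctrl, by 0.42 (SE 0.24, edgeR adjusted p = 0.413).

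HOX levels also differed between the numbered replicates. In the 12 Ctrl libraries, with and without gesicles, 3 of 25 HOX genes (12%) differed by replicate number beyond group, against 4.31% of all genes (edgeR F test, adjusted p). In the 6 libraries labelled cKO the test called 0 of 23 HOX genes and 0.0784% of all genes. Its unadjusted p was under 0.05 for 1 HOX gene, *Hoxb13*, and for 5.23% of all genes. DESeq2 called 5 HOX genes in Ctrl and 0 in cKO, beside 1431 of 28319 and 110 of 26442 genes with any count.

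*Hoxb13* was highest in replicate 3 and lowest in replicate 2 in each of the 4 Ctrl conditions. It averaged 75.5, 53.7 and 86.1 CPM in replicates 1, 2 and 3 (edgeR adjusted p = 0.0101), a 1.6-fold span. Replicates 2 and 3 are both female, and *Hoxb13* was called between them as well (edgeR adjusted p = 0.0232). In the libraries labelled cKO, replicate 1 was highest and replicate 2 lowest in both O2 levels, with means of 136, 84.8 and 114 CPM, and no call was made (edgeR adjusted p = 0.842).

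*Hoxa13*, which takes part in the patterning of limb ends and the hindgut, went another way. It was highest in replicate 1 and lowest in replicate 3 in all 4 Ctrl conditions, with 18.8 to 21.4, 13.8 to 16.1 and 8.52 to 13.2 CPM in replicates 1, 2 and 3, which did not overlap (edgeR adjusted p = 0.0145). The call was lost without Ctrl in 20% O2 replicate 3 (edgeR adjusted p = 0.0701) and between replicates 2 and 3 alone (edgeR adjusted p = 0.0724). In the libraries labelled cKO it was lowest in replicate 1 and highest in replicate 3 in both O2 levels. *Hoxa9* followed the same order, averaging 8.74, 6.91 and 5.47 CPM (edgeR adjusted p = 0.0376), but was called in only 2 of 12 fits that left out 1 library. *Hoxa10* and *Hoxa11* were also lowest in replicate 3 in all 4 conditions (edgeR adjusted p = 0.105 and 0.057). *Hoxb7* and *Hoxb9* spanned 1.03-fold and 1.05-fold over the 3 replicates (edgeR adjusted p = 0.985 and 0.946). Since replicate 1 is the male one in Ctrl, sex and replicate number cannot be told apart in a contrast with it, and where along the tail each culture was taken is not stated in the sources used here.

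**Figure D5:**
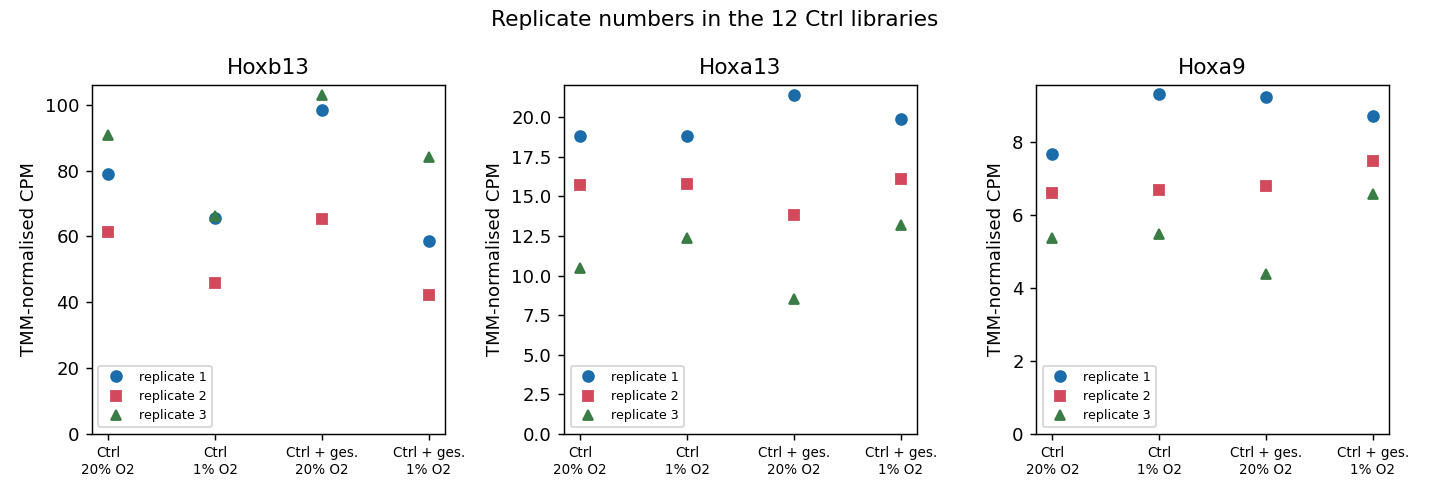
TMM-normalised CPM of *Hoxb13*, *Hoxa13* and *Hoxa9* in the 12 Ctrl libraries, by condition (ges., gesicles) with colour and symbol giving the replicate number. In all 4 conditions replicate 3 (green triangles) is highest for *Hoxb13* and lowest for *Hoxa13* and *Hoxa9*.

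Other transcription factors that mark position were read beside the HOX genes. Of 27 listed, 15 passed the filter on low counts. The caudal genes *Cdx2* and *Cdx4*, which act upstream of posterior HOX genes in the embryo, and the HoxD neighbour *Evx2* had 0 counts in every library, and *Cdx1* at most 3. *Twist1* (32.1 CPM per kb), *Tbx15* (11.9) and *Prrx1* (9.91), all mesenchymal regulators, were the highest. The hindlimb gene *Tbx4* reached 3.09 CPM per kb and *Pitx1* at most 1 count.

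Between genotypes averaged over O2, 1 of the 15 was called, against 3.78% of all genes. This was *Msx2*, lower in the libraries labelled cKO with -0.72 (SE 0.16, edgeR adjusted p = 0.0302). By replicate number in Ctrl, 5 of 15 were called, against 4.31% of all genes. *Six2*, a regulator of kidney progenitors, had 5.45 to 6.72 CPM in replicate 2 against 0.755 to 1.46 in replicate 1 and 0.122 to 0.572 in replicate 3 (edgeR adjusted p = 4.0e-04). *Shox2*, a gene of proximal limb segments, had 5.17 to 7.46 CPM in replicate 1, 1.24 to 2 in replicate 2 and 2.21 to 3.1 in replicate 3 (edgeR adjusted p = 4.6e-04). *Tbx15* and *Twist2* were also called (edgeR adjusted p = 0.00229 and 0.0126). Among the 6 groups *Tbx4* was called (edgeR adjusted p = 0.0417), where 14.7% of all genes were called.

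Partners and regulators of HOX genes were read in the same comparisons. All 9 TALE cofactors, homeodomain proteins that bind DNA with HOX proteins, were tested, with *Meis3* (10.9 CPM per kb), *Pknox1* (4.32) and *Pbx2* (2.98) highest. *Pknox2* was the 1 called between genotypes, at 0.91 (SE 0.24, edgeR adjusted p = 0.0479), higher in the libraries labelled cKO, which is 1 of 9 against 3.78% of all genes.

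Polycomb proteins keep silent HOX genes repressed. The list used here also held histone demethylase genes, which are not part of the Polycomb complexes, and 17 of 17 listed genes were tested. *Bmi1* (33.2 CPM per kb), *Rnf2* (23.8) and *Phc2* (18.2) were the highest. *Cbx2* was lower in the libraries labelled cKO, at -0.59 (SE 0.15, edgeR adjusted p = 0.0429), 1 of 17 against 3.78% of all genes. *Bmi1* and *Phc1* were called among the 6 groups, 2 of 17 against 14.7%. By replicate number in Ctrl, *Kdm6a*, an X-linked demethylase, was called (edgeR adjusted p = 0.0375), 1 of 17 against 4.31%. It averaged 16.2 CPM in the male replicate 1 and 33.8 and 29.6 in the female replicates 2 and 3. In the libraries labelled cKO it averaged 24.8 CPM in the female replicate 1 and 11.5 and 13 in the male replicates 2 and 3. Trithorax and MLL proteins keep HOX genes active. Of the 10 genes of that list, which also held histone demethylase genes, 0 were called in any of the 12 comparisons. The share of all genes called there ran from 0% (interaction) to 14.7% (6 groups). No gene of these 3 lists was called between O2 levels, where 1.88%, 2.1% and 2.41% of all genes were in Ctrl, cKO and gesicle-treated TFs.

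Non-coding genes lie between the HOX genes of each cluster. *Hotair*, transcribed from the posterior part of HoxC, reached 1.88 CPM per kb (33 to 205 counts) and *Hoxa11os* 1.71, while *Haglr* in HoxD had 0 counts in all 18 libraries. *Hoxa11os* overlaps 35% of the exon length of *Hoxa11* on the other strand, and the strand setting of the counting is not stated, so their counts may be mixed. Of the 11 listed genes 6 were tested between genotypes and O2 levels, and 0 were called in any comparison. Of all genes, 0% to 14.7% were called in these comparisons. *Hoxc10* shares 8.7% of its exons with *Hoxc5* on the same strand, whose 0 to 10 counts are small beside the 85 to 643 of *Hoxc10*. *Hoxb13*, *Hoxc13*, *Hoxb7* and *Hoxc6* overlap no other annotated exon.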

How the data were processed

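Poly-A RNA was sequenced with 151 bp paired-end reads in 18 libraries of tail TFs. Per the study's methods the authors used Cutadapt for trimming, STAR for alignment to GRCm38 and RSEM 1.3.3 for quantification. The deposited values are estimated counts per gene in whole numbers, without normalization, and the strand setting is not given in the sources used here. The labels give 10% serum and the methods 1%.

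The HOX members and all gene lists were chosen with earlier results of these data known. Low counts were removed with filterByExpr. The quasi-likelihood test of edgeR 4.0.16 with TMM factors was run once on Ctrl and cKO (12 libraries, 15850 genes) and once on all 18 for gesicles and the 6-group F test (16174 genes). Genes were called at a Benjamini-Hochberg adjusted p under 0.05 over all genes and at least 1.5-fold (F tests: adjusted p alone). Levels are TMM CPM per kb of merged GENCODE M21 exons. By rule, any HOX gene could be named, with values by library for those of at least 1 CPM per kb, those called and otherwise the 3 with the lowest p in a comparison (*Hoxc9* and others of these are given by fold change alone, and some results are not reported here). Members of other lists were named if called or among the 3 highest. *Cdx1*, *Cdx2*, *Cdx4*, *Evx2*, *Pitx1* and *Haglr* were named after their values were seen. Scripts were tested on simulated data, where the methods recovered the changes put in. Those changes were larger than the HOX changes reported here and lay in genes above the median level. Smaller changes, or changes in lower genes, were not put in.

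Alternatives were DESeq2 1.42.0, RLE factors, other filters, replicate blocks, other sets of libraries, no fold minimum and each library left out. Summed libraries, sex as a term and replicates 2 and 3 alone were added after seeing the data. Same-numbered libraries deviated together in Ctrl between O2 levels (residual correlation at least 0.271) and between gesicles and Ctrl (at least 0.193), not in every pair elsewhere (0.0921 at lowest between O2 levels in cKO, and -0.00612 with gesicles). The labels do not say that replicates are separate mice. The study's methods give n = 3 for TFs of male and female mice. By counts, replicate 1 of each line was of the other sex than replicates 2 and 3, so it came from another mouse. For these libraries it is not stated that replicates 2 and 3 were separate mice. The p-values therefore measure only the spread between these samples, part of which may be technical. Depth sets a floor of 3 counts a library, which covers counting error only.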

Additional observations from a re-analysis of the deposited data

How the results depend on the processing

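Of the HOX genes followed through the alternatives, none turned direction under those run. The count of HOX genes called between O2 levels in cKO, 0, became 2 with DESeq2, 2 with DESeq2 and the replicate block and 2 in a fit of all 18 libraries. With a library left out it was 0 to 1. It was 1 without cKO in 20% O2 replicate 2, where 1373 of 16304 genes were called. With gesicles, 0 became 1 with DESeq2, 1 with DESeq2 and the replicate block and 1 with the nested replicate block. Between genotypes in 20% O2, 0 became 1 with DESeq2, 2 with DESeq2 and the replicate block and 1 without a filter on low counts. In 1% O2, 0 became 1 with DESeq2 and the replicate block. Averaged over O2, 2 HOX genes were called with the replicate block and with sex as a term, and 0 with both O2 levels summed. The replicate block joins same-numbered Ctrl and cKO cultures, which were of opposite sex, so it does not pair the genotypes by mouse. With a library left out the count was 0 to 2, and it was 0 without Ctrl in 20% O2 replicate 1. It was 1 without Ctrl replicates 2 or 3 in either O2 level. Leaving out cKO replicate 3 in 20% O2, or cKO replicates 1 or 3 in 1% O2, also gave 1. For the replicate number, 3 became 5 with DESeq2 in Ctrl, 1 with replicates 2 and 3 alone, and 1 to 3 with a library left out (1 without Ctrl in 20% O2 replicate 3). In cKO the count was 0 to 3 with a library left out. It was 3 without replicate 1 in 20% O2, where 1819 of 15838 genes were called. The cause of these changes was not tested. At least 2 CPM per kb kept 9 genes in place of 14. The posterior share was 84.2% without *Hoxb13*, 93.6% without *Hoxb7* and 90.9% without genes that overlap another gene's exons.

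Same-numbered libraries deviated together between O2 levels in Ctrl and between gesicles and Ctrl. In these comparisons the replicate block, which runs by number over both genotypes, called 0 HOX genes, as without it. With the block nested in the line, no HOX gene was called between O2 levels in Ctrl. With gesicles *Hoxc6* was called between O2 levels (1.25 on the log2 scale, edgeR adjusted p = 0.0268). *Hoxb13* among the 6 groups was called in 4 of 18 fits that left out 1 library. Its adjusted p ran from 9.0e-04, with the replicate block of edgeR, to 0.11 over the alternatives. Genes under 3 counts, HoxD above all, are limited by depth, most of all in the smallest library.

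Over all genes the counts called moved more. Between genotypes averaged over O2, 599 became 1274 with DESeq2, 1247 with DESeq2 and the replicate block, 1190 without a filter, 358 with the replicate block, 336 with sex as a term and 25 with libraries summed. DESeq2 called 692 in place of 298 between O2 levels in Ctrl, 888 for 333 in cKO, 731 for 390 with gesicles, 434 for 55 and 285 for 6 between genotypes in 20% and 1% O2, 46 for 4 with gesicles in 20% O2, 4663 for 2381 among the 6 groups, and 1431 for 673 and 110 for 12 by replicate number in Ctrl and cKO. Without a filter 511 were called between O2 levels in cKO, 281 and 111 between genotypes in 20% and 1% O2, and 376 by replicate number in cKO. With only the 2 groups compared, 84 were called between O2 levels in cKO and 120 with gesicles, and with the nested replicate block 774 with gesicles. With 1 library left out, 137 to 1531 genes were called between genotypes averaged over O2 (lowest without Ctrl in 20% O2 replicate 1), 1 to 154 in 20% O2 and 0 to 6 in 1% O2. Between O2 levels the counts ran from 116 to 261 in Ctrl, 98 to 1373 in cKO and 148 to 346 with gesicles. Among the 6 groups they ran from 1466 to 3066, with gesicles in 20% O2 from 0 to 2, for the interaction from 0 to 1, and by replicate number from 261 to 797 in Ctrl and 31 to 2003 in cKO.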
